A study of Mus musculus with 12 samples.

Results

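Deserts of 5-formylcytosine (5fC) are described here as long autosomal intervals in which no 5fC site was listed in Tdg knockout mouse embryonic stem cells. They were chosen by the listed knockout positions alone: a desert is a gap of 300 kb or more between consecutive knockout sites of 1 chromosome. Of 138630 gaps between consecutive knockout sites on the 19 autosomes, 1333 met this rule, which is 0.962% of the gaps. Because the knockout positions chose these intervals, their number, lengths and edges are a description and carry no test. The sites of the control cells were not used by the rule.

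The study mapped 5fC at single-base resolution by a bisulfite-free chemistry in feeder-free mouse embryonic stem cells grown with LIF, of a strain labelled C57BL/6-ICR. The knockout cells are labelled Tdg -/- and the control cells Tdg fl/fl, a floxed line that the series calls WT. Each genotype has 2 biological replicates of fragmented input DNA, of input DNA labelled with azido 1,3-indandione, and of pull-down output. The measurements used here are 1 list of positions per genotype on the mouse build mm9, with 138649 autosomal sites in knockout and 32614 in control cells, and no level or read depth for any site. With 1 list per genotype, no difference below has a replicate check or a p-value, and every interval covers counting error only.

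5fC arises when TET enzymes oxidise 5-methylcytosine, by way of 5-hydroxymethylcytosine. Thymine DNA glycosylase (TDG) excises 5fC and 5-carboxylcytosine, and base excision repair then restores an unmodified cytosine. Cells without TDG therefore keep 5fC that would otherwise be removed, and in mouse embryonic stem cells 5fC is known to lie at many gene regulatory elements. In mammalian DNA the precursor, 5-methylcytosine, is mostly found at CpG dinucleotides. The CpG content of the deserts, their genes, and the share of their sequence to which reads can be mapped were not analysed here, since the genome sequence and annotation of mm9 were not used. A desert is thus an interval without a listed site, and whether it lacks 5fC was not tested.

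Deserts were few among the gaps but covered much of the genome. They summed to 919 Mb, which is 38.2% of the 2410 Mb between the first and the last knockout site of each autosome. The mean gap between knockout sites was 17.4 kb and the median 513 bases, so most sites lay close together while a small number of gaps held a large part of the sequence. The median desert was 506 kb long, with quartiles of 373 and 796 kb, and the mean was 690 kb ± 551 (SD over 1333 deserts). Deserts from 300 to under 500 kb numbered 655 and held 27.0% of desert sequence. The 228 deserts of 1 Mb or more were 17.1% of the deserts and held 39.6% of desert sequence, or 15.1% of the autosomal span. Only 14 deserts reached 3 Mb, and the 10 longest together made up 4.69% of desert sequence.

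**Figure D1:**
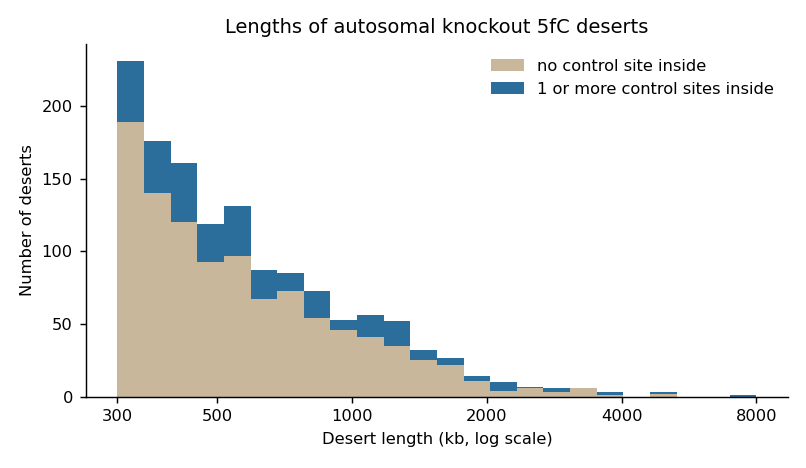
Number of autosomal deserts (vertical axis) by length in kb on a log scale (horizontal axis), with deserts that held no control site in tan and those with 1 or more control sites stacked above in blue. Deserts under 500 kb number 655 and those of 3 Mb or more 14, with the longest at 7.69 Mb. Deserts without a control site make up most of the bars up to 2 Mb.

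The threshold cuts through a continuous distribution. The shortest deserts measured 300341, 300507 and 300817 bases, on chromosomes 13, 6 and 15. The longest gaps left out measured 299926, 299869 and 299559 bases, on chromosomes 14, 4 and 10. Of these 6 gaps, 1 held a control site, the desert on chromosome 15 from 60684930 to 60985747, and that site lay 0.172 kb from its right edge.

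The longest desert lay on chromosome 7 from 39010050 to 46701557 and measured 7.69 Mb. It held 1 control site, which lay 0.275 kb from the left edge, so the remainder was empty in both lists. Its left side was rich in sites, with 27 knockout and 7 control sites in the adjoining 100 kb, while the 100 kb to the right held 7 and 1. The edges of a desert can thus differ widely in how densely they are listed.

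The next in length, 5.27 Mb, lay near the start of chromosome 14, from 3287812 to 8561182, and held no control site. Chromosome 7 had a further long desert from 7243343 to 12326986, of 5.08 Mb and also without a control site. The desert of 4.70 Mb on chromosome 14 from 106505453 to 111209154 held 2 control sites, one of them 0.087 kb from the right edge. The other, at 109312166, was the control site farthest from any knockout site inside a desert, at 1897 kb. Of the 10 longest deserts, the remaining 6 were on chromosomes 1, 8, 14 and 15.

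On chromosome 1, the desert from 26397728 to 30035183 held 2 control sites, the nearer at 399 kb from an edge. The desert from 148178296 to 151776450 on the same chromosome held 1 control site at 150149385, which was 1627 kb from the nearest knockout site. These and the site on chromosome 14 show that control sites were occasionally listed deep inside the longest deserts. No control site lay in the pair of deserts on chromosome 8, which ran from 54459013 to 58012748 (3.55 Mb) and from 19991372 to 23115284 (3.12 Mb). The same held for chromosome 14 from 37910329 to 41263098 (3.35 Mb), and for chromosome 15, where the desert from 68802239 to 71925546 measured 3.12 Mb.

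Every autosome had a desert of more than 1 Mb. The longest of a chromosome was shortest on chromosome 19, at 1.37 Mb from 19649743 to 21015643, and on chromosome 13, at 1.37 Mb from 85052766 to 86427732. It measured 1.57 Mb on chromosome 16, from 52093613 to 53659925, and 1.65 Mb on chromosome 9, from 92825494 to 94478866. On chromosomes 3, 4, 6 and 18 it measured 1.95, 2.12, 2.29 and 2.44 Mb. Between these and the longest stood chromosomes 10, 5, 12, 17, 2 and 11, with 2.64, 2.71, 2.81, 3.08, 3.08 and 3.09 Mb. Of the 19 longest deserts per chromosome, the one on chromosome 12 from 114417529 to 117231203 had the densest flank, with 40 knockout and 6 control sites in the 100 kb to its left, against 4 and 0 to its right.

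The share of a chromosome taken up by deserts varied between chromosomes, with a mean of 37.6% ± 6.38 (SD, n = 19 autosomes). It was lowest on chromosome 11, at 22.9%, followed by chromosome 19 with 29.0%, chromosome 9 with 30.04% and chromosome 13 with 31.3%. It was highest on chromosome 14, at 48.5%, followed by chromosomes 16, 12, 1 and 3 with 43.9%, 43.8%, 43.5% and 43.4%. These last 4 differed by far less than the spread among autosomes. Chromosome 1 had the most deserts, 115, and chromosome 19 the fewest, 30. Per 10 Mb of span, chromosome 16 had the most, 7.17, and chromosome 11 the fewest, 3.62. The median desert length per chromosome stayed between 438 kb on chromosome 19 and 595 kb on chromosome 8.

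The number of deserts and their length did not go together on every chromosome. Chromosome 13 had 5.89 deserts per 10 Mb, above the mean of 5.53, but a median of 443 kb and a low coverage of 31.3%. Chromosome 8 had 4.75 per 10 Mb, with the longest median and a coverage of 39.9%. Desert-free stretches were longest on chromosome 4, where 20.6 Mb passed without one, and the longest such stretch was shortest on chromosome 3, at 6.04 Mb.

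**Figure D2:**
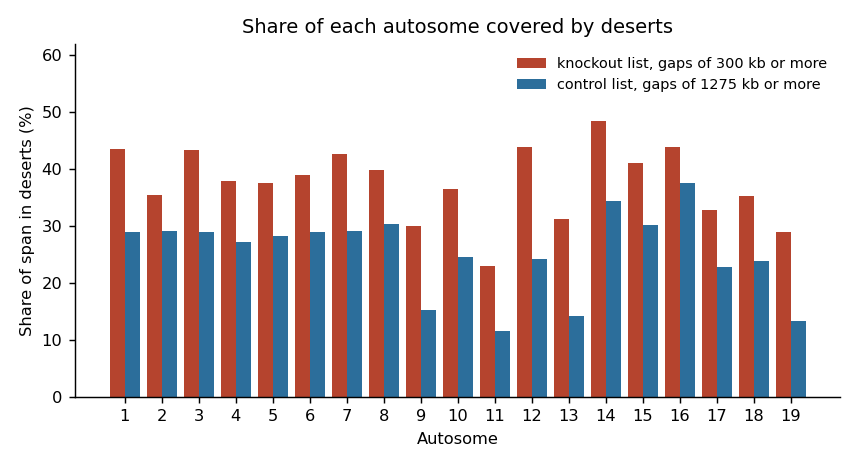
Share of the span between first and last site that lay in deserts (vertical axis, %) for each of 19 autosomes (horizontal axis), for the knockout list with a minimum of 300 kb in red and for the control list with a minimum of 1275 kb in blue. Chromosome 11 has the lowest bar in both lists, at 22.9% and 11.5%, while the highest bars are on chromosome 14 in knockout (48.5%) and chromosome 16 in control (37.5%).

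Each span was also divided into 10 equal bins. Mouse autosomes have their centromere at the low-coordinate end, and mean desert coverage was lowest in the bins farthest from it. The last bin was 23.6% desert ± 15.5 and the bin before it 30.1% ± 23.1 (SD, n = 19 autosomes). In the other 8 bins the mean lay between 35.6% and 44.2%, with SDs from 14.02 to 22.1. The spread among autosomes was large in every bin, and the last ranged from 3.32% to 53.0%. This spread does not measure the difference between bins of the same autosome, which was not tested.

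The control list, which the rule did not use, was next counted inside the deserts. They held 373 control sites, 1.14% (95% interval 1.03 to 1.27) of the 32608 control sites within the knockout span. This is 0.406 sites per Mb (0.366 to 0.449) in deserts against 21.6 per Mb in the remaining 1490 Mb, a ratio of 0.0188 (0.0169 to 0.0208). A base listed in both genotypes cannot lie inside a knockout desert by construction. With such bases left out on both sides, the density outside was 12.4 per Mb and the ratio 0.0328 (0.0295 to 0.0363). The control cells thus had few listed sites where the knockout cells had none, by either count.

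The ratio was below 1 on all 19 autosomes. It ranged from 0.00866 (0.00395 to 0.0165) on chromosome 15, with 9 control sites in 41.2 Mb of desert, to 0.0408 (0.0261 to 0.0610) on chromosome 13, with 24 in 36.7 Mb. These 2 were picked as the lowest and highest of 19 values. That their intervals did not overlap therefore does not show a difference between chromosomes. The mean over autosomes was 0.0200 ± 0.00697 (SD, n = 19).

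No control site was listed in 1035 of the 1333 deserts (77.6%, 75.3 to 79.9). A further 242 deserts held 1 control site, 39 held 2, 15 held 3 and 2 held 4. Shorter knockout gaps held no control site at similar or higher shares: 93.9% under 1 kb, 82.0% from 1 to under 10 kb and 80.7% from 200 to under 300 kb. The share per gap thus does not set deserts apart, though they span more sequence. To compare equal lengths, deserts and the stretches between them were cut into tiles of 300 kb. Of 2525 tiles in deserts, 92.2% (91.0 to 93.2) held no control site, against 10.8% (9.86 to 11.7) of 4474 tiles elsewhere. The median tile elsewhere held 5 control sites and the highest 51, whereas no desert tile held more than 4. Tiles elsewhere included bases shared with the knockout list, which cannot lie in a desert, so part of this contrast is built in. Desert tiles ran from the left edge and covered 757.5 Mb, so remainders at right edges were left out.

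Many of the control sites inside deserts lay close to the edges. Of the 373, 185 (49.6%) were under 1 kb from the nearest knockout site, 98 were within 100 bases and 31 were exactly 1 base away, where the cytosine of the other strand of a CpG would be. The median distance was 1.16 kb. In this outermost 1 kb the control density was 69.5 per Mb (59.8 to 80.2), in the next stretch up to 10 kb it was 0.792 (0.477 to 1.24), and from 10 to 50 kb it was 0.263 (0.174 to 0.379). It was 0.248 from 50 to 100 kb and 0.240 from 100 to 150 kb, with intervals that overlap each other. Beyond 150 kb it was 0.146 (0.115 to 0.183).

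The named deserts with the most control sites held them at the edge alone, or both at the edge and farther in. Of the 5 named, 2 held 4 control sites, and the other 3 were taken by position from 15 deserts with 3 each. The desert on chromosome 7 from 77751622 to 78075167 held 4, of which 77751623 and 77751659 were 0.001 and 0.037 kb from the left edge and the pair at 77763314 and 77763398 was near 11.7 kb. On chromosome 1, all 3 control sites of the desert from 95648989 to 95978406 were within 0.505 kb of the right edge. The 3 of the desert from 130896583 to 132083687 were within 0.268 kb of it. These sites extend a listed group beyond its outermost knockout base.

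Other control sites stood far from any edge. On chromosome 4, the desert from 16152392 to 17034868 held 4 control sites. Of these, 17034867 was 1 base from the right edge and 17034662 was 0.206 kb from it, while 16559184 and 16559339 lay about midway, 407 kb from the left edge. On chromosome 2, the desert from 66996363 to 68048171 had 1 control site at its right edge and a pair, at 67956240 and 67956292, 91.9 kb away from it.

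Deep control sites were counted over all deserts. A distance of 10 kb or more from every knockout site was met by 169 control sites in 137 deserts. Another control site lay within 1 kb of 36 of them (21.3%, 15.4 to 28.3), and 4 had one on the adjacent base. Over all 373 sites inside deserts, 27.6% (23.1 to 32.5) had another control site within 1 kb, against 43.0% (42.5 to 43.6) of control sites elsewhere. The share with a neighbour was thus lower inside deserts, where the list is also sparser.

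Gaps shorter than the threshold were used to ask whether this edge pattern belonged to long deserts. Under 1 kb from a knockout site, control density was 78.8 per Mb (74.9 to 82.9) in gaps of 30 to under 100 kb and 71.2 (58.8 to 85.3) in gaps of 200 to under 300 kb. It was 74.1 (60.1 to 90.4) in deserts under 500 kb, 62.3 (47.0 to 80.9) in those from 500 kb to under 1 Mb and 70.2 (48.05 to 99.2) in those of 1 Mb or more. Near the edge, the intervals of all these gap lengths overlapped. Shared bases, which end a gap, are not in these counts.

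Farther in, the values differed between gap lengths. At 10 kb or more from a knockout site, control density was 1.58 per Mb (1.45 to 1.72) in gaps of 30 to under 100 kb and 0.753 (0.658 to 0.858) in gaps of 100 to under 200 kb. It was 0.364 (0.282 to 0.462) in gaps of 200 to under 300 kb, 0.234 (0.176 to 0.304) in deserts under 500 kb and 0.229 (0.177 to 0.290) in those from 500 kb to under 1 Mb. In deserts of 1 Mb or more it was 0.128 (0.0936 to 0.171), from 46 sites in 360 Mb. Over gaps up to 300 kb the intervals did not overlap from one length class to the next, while the classes of deserts under 500 kb and from 500 kb to under 1 Mb did not differ beyond counting error. Longer gaps also have more sequence far from their edges, so matched distances were compared. At 10 to 50 kb from a knockout site, the density was 0.881 (0.756 to 1.02) in gaps of 100 to under 200 kb and 0.425 (0.283 to 0.615) in gaps of 200 to under 300 kb. In deserts it was 0.286 (0.160 to 0.472) under 500 kb, 0.333 (0.172 to 0.582) from 500 kb to under 1 Mb, and 0.0548 (0.00139 to 0.305), from 1 site, at 1 Mb or more. At 50 to 100 kb, it was 0.491 (0.362 to 0.651) and 0.292 (0.187 to 0.434) in the same 2 classes of shorter gaps. In deserts it was 0.229 (0.128 to 0.378), 0.20 (0.0915 to 0.380) and 0.395 (0.180 to 0.749) at that distance, highest in those of 1 Mb or more. At a matched distance, the intervals of the 3 desert classes overlapped, and no order by desert length can be read from them.

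**Figure D3:**
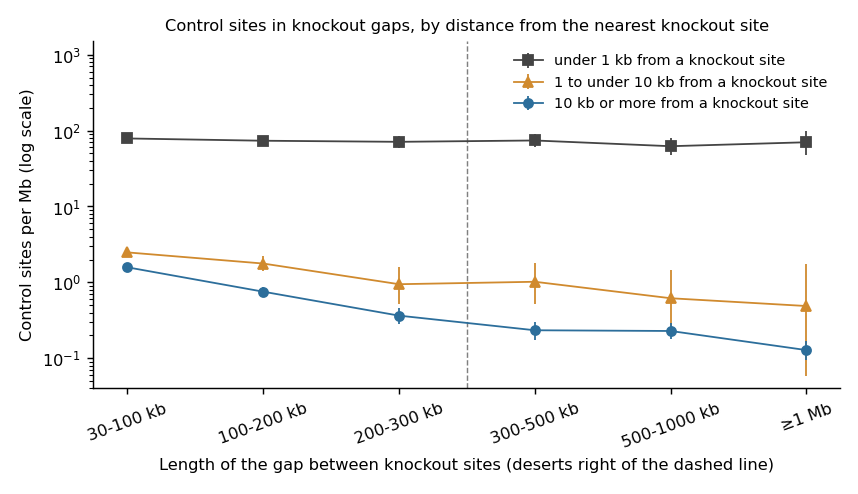
Control sites per Mb (vertical axis, log scale, bars are 95% Poisson intervals) inside gaps between knockout sites, by gap length (horizontal axis, deserts to the right of the dashed line) and by distance from the nearest knockout site. The squares for distances under 1 kb stay between 62.3 and 78.8 per Mb at every gap length, while the circles for 10 kb or more fall from 1.58 to 0.128 per Mb.

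The share of gaps that held a control site was 19.9% in gaps of 10 to under 30 kb, 20.6% in gaps of 30 to under 100 kb and 19.3% in gaps of 200 to under 300 kb. It was 20.5% in deserts under 500 kb, 22.4% in those from 500 kb to under 1 Mb and 27.6% in those of 1 Mb or more. Among the last, 49 of 192 deserts under 2 Mb, 9 of 22 from 2 to under 3 Mb and 5 of 14 of 3 Mb or more held one. From 10 kb to under 500 kb the share thus stayed near 20%, while it was lower in gaps under 10 kb. The value was higher in deserts of 1 Mb or more, which also span more sequence each. The intervals for deserts from 1 to under 2 Mb, 2 to under 3 Mb and 3 Mb or more each overlapped that for deserts under 500 kb. Splitting deserts of 1 Mb or more makes these classes small, and overlap of the intervals does not show that the shares are equal. The shares were not compared directly.

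The control list has its own deserts, and these were compared with those of the knockout list. Since the knockout list is 4.25 times as long on autosomes, the minimum for a control gap was scaled by the same factor to 1275 kb. The control list had 278 such gaps, with a sum of 624 Mb, 26.0% of its span, and a longest of 7.69 Mb. Knockout deserts covered 84.5% of this sequence, against 38.2% of the whole knockout span. Control deserts covered 57.4% of the sequence in knockout deserts, against 26.0% of the whole control span, with 528 Mb in both. Bases listed in both genotypes end gaps in both lists, so part of this overlap is built in. None of the 278 control deserts was free of knockout desert sequence. How often other windows of such length touch a knockout desert was not computed. Of knockout deserts, 500 (37.5%) lay wholly inside a control desert, and of those of 1 Mb or more, 161 of 228 (70.6%).

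In the other direction, control deserts were not empty of knockout sites. They held 2685, or 4.30 per Mb, against 76.6 per Mb outside, a ratio of 0.0561 (0.0540 to 0.0583). Bases listed in both genotypes can only lie outside, so part of this contrast is built in. Across the 19 autosomes, the share of span in knockout deserts rose with that in control deserts (Pearson r = 0.880, Spearman rho = 0.818). Each chromosome's values come from the same 2 lists and the same sequence, so this is a description.

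The edges of the deserts were then examined. In the first 50 kb outside an edge, the knockout list had 80.7 sites per Mb, counting the edge site itself and stopping at the next desert. Without the edge site the value was 53.2 per Mb. From 50 to 100 kb outside, the density was 34.6 per Mb, and it rose with distance to 68.5 per Mb from 450 to 500 kb. The mean of autosomes outside deserts was 92.9 ± 15.4 per Mb (SD, n = 19). The bins from 50 to 500 kb, at 34.6 to 70.4 per Mb, lay below that mean. So did the first bin, with or without the edge site. That SD is a spread of whole autosomes and does not measure the spread among edges, so the difference was not tested.

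Most of the first bin came from the group of sites that forms the edge. Within 10 kb outward the density was 275 per Mb with the edge site counted, and from 10 to 20 kb it was 30.7. The 5498 sites of the first 10 kb include the edge site of each of the 2666 edges, which is there by definition. The spread among edges exceeded the mean. At 50 to 100 kb the density was 32.2 ± 65.9 per Mb (SD over the 1754 edges with a full bin), and 59.2% of these edges had no knockout site there. Only stretches that reach a given distance before the next desert enter a bin, which favours site-rich stretches at larger distances. When bins were run on through neighbouring deserts, the density was 58.9 per Mb in the first 50 kb, 23.7 in the next and 33.6 from 450 to 500 kb.

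The control list showed the same outline. Its density was 14.6 per Mb (13.8 to 15.4) in the first 50 kb outside an edge, 7.90 (7.33 to 8.50) in the next and 15.5 (14.4 to 16.5) from 450 to 500 kb. Inside the edge it was 1.74 (1.52 to 1.98) in the first 50 kb and 0.248 (0.170 to 0.348) in the next. Bases shared with the knockout list can only lie outside. Without them, the density outside was 6.78 (6.27 to 7.32) in the first 50 kb and 4.39 (3.97 to 4.85) in the next, and it still exceeded the inside value beyond counting error in both bins.

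**Figure D4:**
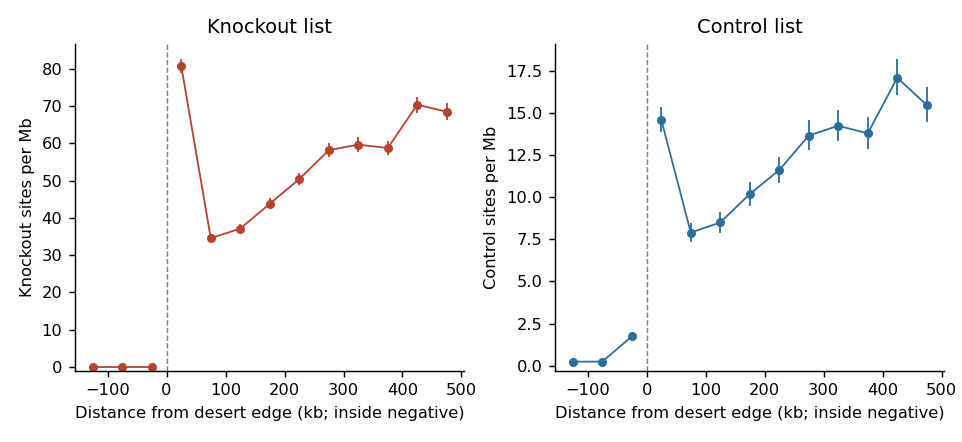
Pooled density of sites per Mb (vertical axes, bars are 95% Poisson intervals) in bins of 50 kb by distance from the edge of a desert in kb (horizontal axes, negative values inside the desert), for the knockout list on the left and the control list on the right. Knockout values inside are 0 by definition, and both lists dip in the second bin outside, to 34.6 and 7.90 per Mb, before rising with distance.

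Few desert edges had a site-dense flank, though no share for 100 kb windows elsewhere was computed. The 100 kb beside an edge held a median of 2 knockout sites with the edge site counted, and at 776 of 2666 edges (29.1%) it held the edge site alone. Part of these follow from a neighbouring desert, since 182 knockout sites lay singly between 2 deserts. At 59 edges (2.21%) it held 20 or more, with a highest value of 45. Only 1 desert had 20 or more on both sides, while 142 had 1 site on both sides.

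Edge sites were compared with other knockout sites by their presence in the control list. Sites on adjacent bases were counted as 1 locus. Of 2467 edge loci, 9.93% (8.78 to 11.2) had a control site on a listed base of the locus, against 10.8% (10.65 to 10.996) of the other 122664 loci. A control site lay within 1 kb of 27.8% (26.0 to 29.6) of edge loci and of 42.8% (42.5 to 43.1) of the others. Edge loci have no knockout neighbour on their desert side by definition. Loci without another knockout site within 10 kb on either side make a closer comparison. Among these, 20.4% (18.1 to 22.8) of 1176 edge loci and 23.4% (22.4 to 24.4) of 7574 other loci had a control site within 1 kb, and 8.93% (7.36 to 10.7) and 9.40% (8.75 to 10.1) had one at a listed base.

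Isolated edge loci were thus listed in control cells at a share whose interval overlaps that of other loci without a knockout site within 10 kb. The 2 sets are not equally isolated, since an edge locus has a gap of 300 kb or more beside it. Overlap of the intervals does not show that the shares are equal. The share of isolated loci with both adjacent bases listed was 8.08% (6.58 to 9.79) at edges and 10.6% (9.94 to 11.3) elsewhere, a description of knockout positions that the rule itself used. For 977 isolated edge loci with a desert on 1 side only, the desert side held 84 control sites within 1 kb and the other side 68, a ratio of 1.24 (0.887 to 1.73). The interval includes 1, so a difference between the sides was not detectable with these counts.

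Many deserts were separated from the next by few knockout sites, though no like count was made for other gaps. Between consecutive deserts of a chromosome lay 1314 stretches with a median of 8 knockout sites and a median length of 284 kb. In 182 of them the stretch was 1 knockout site, and in 17 more it was 1 pair of sites on adjacent bases, so 199 stretches consisted of 1 locus. Stretches of 10 or fewer sites numbered 721 (54.9%) and held 2510 knockout sites in 81.2 Mb. At the other end, 262 stretches had more than 100 sites, and the richest had 4612. These 262 held 114838 of the 138649 autosomal knockout sites in 1053 Mb.

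The control list was also counted in these stretches. Of the 182 single sites between 2 deserts, 14 (7.69%, 4.27 to 12.6) were also control sites, an interval that includes the 9.95% of all autosomal knockout sites listed in control at the same base. Of 158 stretches of 2 sites, 32 (20.3%, 14.3 to 27.4) held a control site, and of 228 with 3 to 5 sites, 105 (46.1%, 39.5 to 52.8). With 6 to 10 sites the share was 79.7%, with 11 to 30 it was 94.9%, and all 174 stretches with 31 to 100 sites and all 262 with more than 100 held one. The share rose with the number of knockout sites and with the length of the stretch, which go together.

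**Figure D5:**
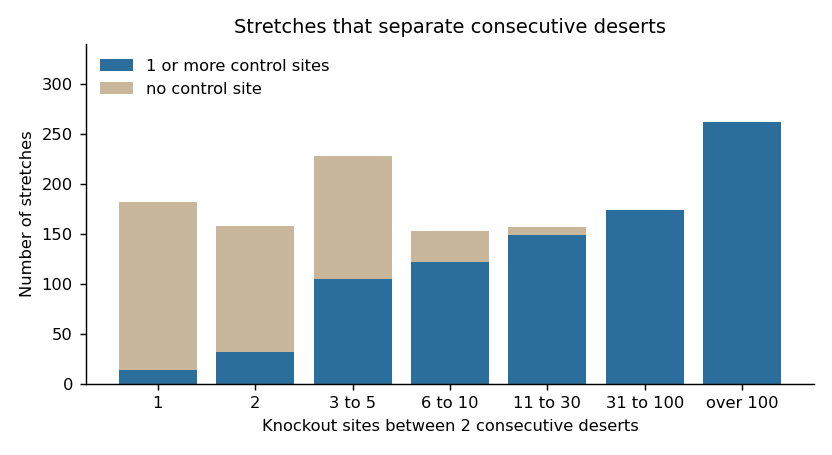
Number of stretches between consecutive deserts (vertical axis) by the number of knockout sites in the stretch (horizontal axis), with stretches that hold a control site in blue and those without in tan. Single-site stretches number 182, of which 14 hold a control site, and all 262 stretches of more than 100 sites hold one.

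Counting deserts with 10 or fewer knockout sites between them as 1 run gave 302 runs of 2 or more deserts. These runs took in 1023 deserts (76.7%), and 310 deserts stood alone. A single locus in a sparse interval splits it into 2 deserts, so part of this count follows from the rule. Runs spanning 5 Mb or more numbered 39, and 6 spanned 10 Mb or more. The longest was on chromosome 1 from 108177305 to 119919006, with 12 deserts in 11.7 Mb, of which 84.1% was desert, and 36 knockout and 6 control sites in all that sequence. The next was on chromosome 15 from 13385400 to 25047095, with 12 deserts, 90.1% desert, 35 knockout and 9 control sites. The next was on chromosome 4 from 63313577 to 74886390, with 11 deserts, 82.4% desert, 39 knockout and 8 control sites. In each of the 3 runs, more than 11 Mb held fewer than 50 sites of both lists together.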

How the data were processed

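The authors deposited 1 list of 5fC positions per genotype, with no levels. The start column of each list was used. Per the submitters' processing notes, Bismark 0.8.3, HOMER and mm9 were used, without a role for each. The rule for listing a site and the pooling of replicates are not given in the sources, nor is whether positions count from 0 or 1, so they are printed as listed. Genotypes were taken from the names of the lists. Whether the lists used here hold every site was not checked.

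Gaps were taken and plotted in Python (version 3.11.15, with numpy version 2.4.6, scipy version 1.17.1 and matplotlib version 3.10.9). A gap's length is the difference of the 2 positions, and a control site counts as inside when strictly between them. Shares have exact Clopper-Pearson intervals, densities exact Poisson intervals and ratios exact conditional intervals, all at 95%. They assume independent sites, so they are too narrow for clustered ones. Read depth is unknown. Named regions follow a fixed rule: the 10 longest deserts, the longest per autosome, the 5 with most control sites, the 5 longest without any, the 3 longest runs, and the 3 gaps on either side of the threshold. The desert rule and the comparisons were chosen with earlier results of these data known. The gap functions were tested on simulated lists with planted gaps. The comparisons by matched distance, of isolated edge loci and of tiles, the edge bins run through neighbouring deserts and the counts without shared bases were added after the lists were seen.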

Additional observations from a re-analysis of the deposited data

Results flagged for a closer look

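Chromosome X was left out of the desert rule, and its signal is given as a value. It had 70 knockout gaps of 300 kb or more, which covered 94.5% of its span, with a median of 1079 kb and a longest gap of 9.88 Mb. These gaps held 12 of the 56 control sites on X, or 0.0796 per Mb. They were singled out because X entered no comparison of the report, and the X gaps were not tested against autosomal deserts.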

How the results depend on the processing

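The 9 results were recomputed under 31 alternatives, of which 15 kept the value inside its interval or spread, or the count within 1.5 times. A minimum of 200 kb gave 2156 deserts and one of 500 kb gave 678, with 46.5% and 27.8% of the span. Leaving out isolated knockout sites gave 1423 deserts but 1211 Mb, 50.3% of the span. The ratio of control densities was 0.0167 at the 500 kb minimum, 0.00875 without the outer 10 kb of each desert, 0.0216 with control sites within 1 kb counted as 1 and 0.0328 without bases shared with knockout. Every value of this ratio stayed far below 1. The share of control sites in deserts with a neighbour was 15.3% within 100 bases. At edges, knockout density was 154 per Mb in bins of 20 kb, 58.4 in bins of 100 kb, 53.2 without the edge site and 58.9 through neighbouring deserts, and control density was 25.5, 11.3 and 11.1 in 20 kb bins, 100 kb bins and through deserts, and 6.78 without shared bases. Leaving out shared bases and running bins through deserts were added after the data were seen. A control minimum of 500 kb put 73.2% of control desert sequence in knockout deserts. Changing the minimum changes the members by construction, and bin width follows from the clustered edge sites. For the other shifts, the cause was not tested. Read depth is unknown, so a gap in a list need not be a gap in 5fC. No paired analysis was possible because each genotype has a single list without replicates.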
